A study of Mus musculus with 24 samples.

Results

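The genes described here encode the subunits of the proteasome, together with Nfe2l1, a transcription factor that drives their expression. They were chosen by name from the count data: each protein-coding gene whose symbol begins with Psma, Psmb, Psmc or Psmd and a digit, leaving out the immunoproteasome subunits Psmb8, Psmb9 and Psmb10, plus Nfe2l1. This gave 38 of the 47643 genes counted. They comprise 16 genes of the 20S core (8 of the alpha ring and 8 of the beta ring), 17 of the 19S cap (6 ATPases, 3 other subunits of the base and 8 of the lid), 3 assembly chaperones that carry Psmd names (Psmd5, Psmd9 and Psmd10) and Nfe2l1. The remaining gene, Psmc3ip, has a matching symbol but encodes a cofactor of meiotic recombination, and it was counted with neither core nor cap.

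RNA-seq was performed on sensory neurons of the mouse L4 dorsal root ganglion (DRG), sorted for the green reporter, from 4 control and 4 Nav-Tsc2 mice with 3 libraries of 100 cells per mouse. Control mice carried Nav1.8-Cre, the Rosa26-ZsGreen reporter and the Tsc2 alleles flox/+, and Nav-Tsc2 mice carried the same Cre and reporter with the Tsc2 alleles flox/null. Mice of both genotypes were of a mixed C57BL/6 and AJ background, were 8-9 weeks old and had received a sciatic nerve crush 3 d earlier on the opposite side of the body. Each genotype had 2 male mice (replicates 1 and 2) and 2 female mice (replicates 3 and 4). The control mice also carry the Cre, the reporter and 1 floxed Tsc2 allele, so the comparison is between neurons with loss of 1 and of both alleles. Nav1.8-Cre is active in most nociceptors and in some myelinated neurons, so the sorted cells are a mixture of neuron types.

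Tsc2 restrains the growth-promoting kinase complex mTORC1, which drives protein synthesis. The proteasome is the main protease for ubiquitin-tagged proteins. Its 20S core is a barrel of alpha and beta rings with the proteolytic sites on the beta subunits Psmb5, Psmb6 and Psmb7, and the 19S cap binds the tagged substrate, removes the ubiquitin and unfolds the chain with a ring of ATPases. Nfe2l1 is made in the endoplasmic reticulum membrane and degraded by the proteasome, and when proteasome capacity is low it is processed instead and binds antioxidant response elements in the promoters of subunit genes.

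Libraries held between 8339220 and 34228180 counts on genes, and each mouse between 47959617 and 61290435 after its 3 libraries were summed. Levels are given as CPM, the counts of a mouse scaled to a common total with TMM factors, and fold changes are those of edgeR's quasi-likelihood test over 17178 genes, with Benjamini-Hochberg adjusted p-values over all of them. A gene was called when its adjusted p was under 0.05 and its log2 fold change over 0.5 or under -0.5. Tsc2 measured 13.4, 24.7, 21.5 and 24.1 CPM in the control mice and 8.70, 8.51, 7.30 and 10.95 CPM in the Nav-Tsc2 mice. The groups did not overlap, and Tsc2 was called lower (log2 fold change -1.24, SE 0.22, adjusted p = 0.0040). The neuronal genes Avil (616 to 795 CPM in control and 712 to 883 CPM in Nav-Tsc2 mice) and Scn10a, which encodes Nav1.8 itself (510 to 791 and 577 to 658 CPM), were present in each mouse.

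All but 1 of the 38 members passed the low-count filter. Psmb11, the thymus-specific beta subunit, stayed at or below 0.301 CPM in each mouse and was not tested. Psma8, the alpha subunit of spermatogenic cells, passed the filter at between 0.0543 and 4.80 CPM in control mice, and its log2 fold change had a 95% interval from -2.95 to 2.75. The other 31 core and cap subunits are those of the constitutive proteasome.

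Per kb of transcript, the constitutive subunits spanned a wide range in control mice although the assembled particle holds fixed numbers of each. Psmb6, which carries the caspase-like activity, was the most abundant of the 14 core subunits at 1013 ± 29.2 CPM per kb (SD, n = 4). Psma7, of the alpha ring, followed at 765 ± 40.0 CPM per kb, well clear of the next alpha subunit, Psma6, at 354 ± 15.0 CPM per kb. Psmb5, which carries the chymotrypsin-like activity, was lowest at 52.9 ± 7.01 CPM per kb. The median was 181 CPM per kb for the core and 168 CPM per kb for the 17 cap subunits.

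In the cap the ATPases stood above most of the other subunits. Psmc5 was highest at 501 ± 24.2 CPM per kb, and the 6 ATPases lay between that and 168 CPM per kb for Psmc6. Psmd14, the deubiquitinase of the lid, led the lid at 337 ± 18.6 CPM per kb, and Psmd4, a ubiquitin receptor, led the other subunits of the base at 182 ± 9.99 CPM per kb. Psmd3, a scaffold subunit of the lid, lay far below the rest of the cap at 7.89 ± 1.66 CPM per kb, and the next subunit up, Psmd11, measured 57.2 ± 6.67 CPM per kb. The assembly chaperones were also low, with Psmd10 the highest of the 3 at 55.3 ± 4.22 CPM per kb.

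Reads that matched more than 1 place were left out of the counts, which touches some of these levels. Their share, out of counts on genes and reads left out together, had a median of 38.6% over control and 40.6% over Nav-Tsc2 libraries. The part of this in the differences between genotypes was not tested. Of all 50-base windows of the principal transcript, 57.1% for Psmb5, 55.8% for Psmb3 and 55.4% for Psma5 also occurred in a transcript of another gene, so the levels of these 3 are uncertain and may be too low. The share was 31.5% for Psma4, 28.1% for Psmb7, whose exons overlap those of Nek6, and 26.4% for Psmd2. It was 0 for 18 members, Psmd3 and Psmc5 among them. Over the full set of exons in place of the principal transcript, Psmb6 (432 CPM per kb) and Psmc5 (473 CPM per kb) stayed the highest, and Psmb5 (52.9 CPM per kb) and Psmd3 (3.41 CPM per kb) the lowest, of core and cap. The place of Psma7 changed: at 228 CPM per kb it lay below Psma6 (299 CPM per kb) and Psmb2 (382 CPM per kb).

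**Figure D1:**
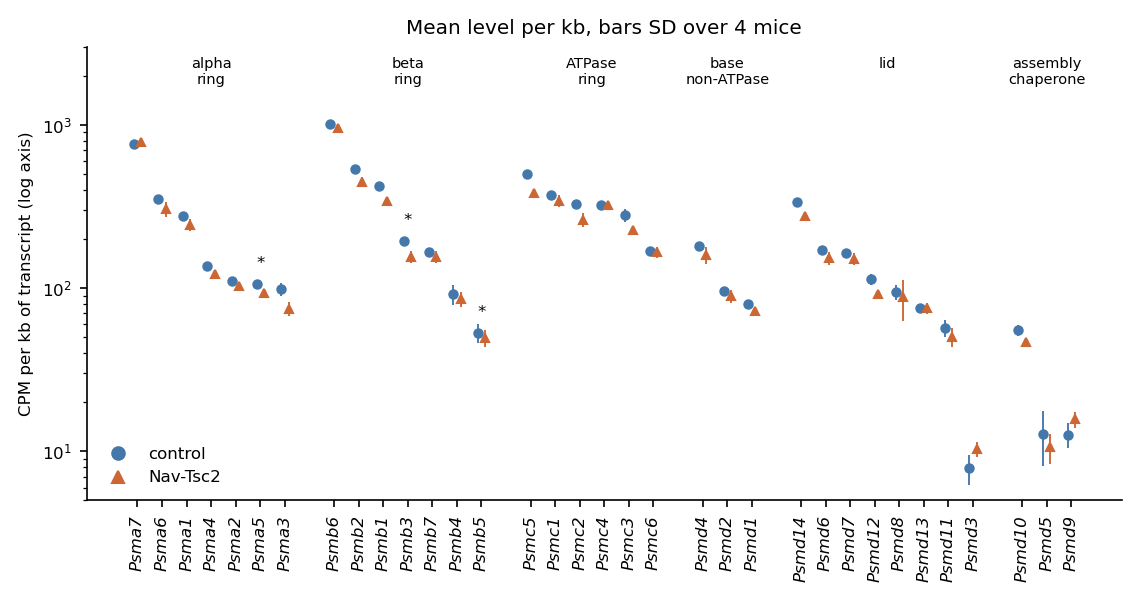
Mean CPM per kb of principal transcript on a log axis for the constitutive subunits and the Psmd-named assembly chaperones, ordered by structural group, with circles for control and triangles for Nav-Tsc2 mice and bars for the SD over 4 mice. Levels run from 7.89 CPM per kb for Psmd3 to 1013 for Psmb6 in control mice, and asterisks mark the 3 genes with over 50% of their windows shared with another gene.

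The subunit levels were tight between mice. The coefficient of variation over the control mice had a median of 4.82% for the 31 constitutive subunits, against 15.2% for the 8445 tested genes with a mean of at least 10 CPM. In Nav-Tsc2 mice the medians were 8.35% and 10.8%. The 8445 genes were not matched to the subunits for level. The median SE of the log2 fold change was 0.08 for the subunits and 0.15 for those genes, so small differences could be resolved here.

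Nfe2l1 was the only member called in either direction. Its level was 148, 143, 199 and 155 CPM in the control mice and 215, 261, 243 and 241 CPM in the Nav-Tsc2 mice. Each Nav-Tsc2 mouse lay above each control mouse, and control replicate 3 was the closest to them. Nfe2l1 rose by a log2 fold change of 0.58 (SE 0.12, 95% interval 0.31 to 0.84, adjusted p = 0.0076), which is 1.49-fold. Among all genes tested, 9.12% were called higher and 8.00% lower. In single libraries Nfe2l1 ranged from 120 to 209 CPM in control and from 195 to 270 CPM in Nav-Tsc2 mice, so the highest control libraries reached the lowest Nav-Tsc2 ones. Within each sex the log2 fold change was 0.71 in male and 0.45 in female mice. In bulk libraries such as these, a change in the number of cells of a type and a change in RNA per cell cannot be told apart.

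No core or cap subunit was called lower or higher in edgeR or in DESeq2, while 11 of the 32 tested were lower and 1 higher at an unadjusted p under 0.05 in edgeR. Of all 17178 genes tested, 2848 were lower and 2949 higher at that unadjusted limit. Without the fold limit, 9 of the 37 tested members were lower at an adjusted p under 0.05 (24.3%), against 10.2% of all genes tested, and 1, Nfe2l1, was higher, against 10.8%. The genes tested were not matched to the members for level or SE. The median SE was 0.08 for the constitutive subunits and 0.15 for tested genes with a mean of at least 10 CPM. All 9 lower members were core or cap subunits, 4 of the 15 tested core genes and 5 of the 17 cap genes, and their log2 fold changes lay between -0.40 and -0.25. The differences were small but regular in sign: the log2 fold change was below 0 for 32 of the 37 members, against 49.3% of all genes tested.

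Psmc5, an ATPase of the cap, had the smallest p of all subunits. It measured 668, 686, 614 and 673 CPM in the control mice and 517, 482, 495 and 523 CPM in the Nav-Tsc2 mice. The groups stood well apart, and Psmc5 was lower by 23.6% in Nav-Tsc2 mice (log2 fold change -0.39, SE 0.07, 95% interval -0.54 to -0.23, adjusted p = 0.0041). The ATPases Psmc2 (567 to 598 CPM in control and 431 to 531 CPM in Nav-Tsc2 mice, log2 fold change -0.31, adjusted p = 0.023) and Psmc3 (397 to 486 and 361 to 383 CPM, -0.29, adjusted p = 0.030) were also lower. The other 3 ATPases did not pass the test, with log2 fold changes of -0.11 for Psmc1, -0.02 for Psmc6 and 0.01 for Psmc4. For Psmc4 the 95% interval was -0.15 to 0.17, so the members of 1 ring, present in equal numbers in the particle, ranged from a difference resolved from 0 to an interval around it; the differences between them were not tested.

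Psmb1, a beta subunit without a proteolytic site of its own, had the smallest p of the core. It measured 764, 745, 735 and 735 CPM in the control mice and 580, 576, 656 and 599 CPM in the Nav-Tsc2 mice. The control mice lay close together, and each was above each Nav-Tsc2 mouse (log2 fold change -0.31, SE 0.07, adjusted p = 0.013). Psmb2 (442 to 475 CPM in control and 367 to 423 CPM in Nav-Tsc2 mice, -0.25, adjusted p = 0.038) and Psmb3 (146 to 155 and 110 to 133 CPM, -0.33, adjusted p = 0.021), which likewise lack a proteolytic site, were lower without overlap of the groups. Psmb3 is 1 of the 3 genes with most of their windows shared, so its value is less certain.

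The catalytic subunits did not pass the test. Psmb5 measured 45.8, 54.8, 39.9 and 49.7 CPM in control and 43.2, 50.1, 46.0 and 37.6 CPM in Nav-Tsc2 mice, so the groups overlapped (log2 fold change -0.10, 95% interval -0.39 to 0.19, adjusted p = 0.63). Psmb6 measured 838, 815, 788 and 791 CPM in control and 736, 713, 813 and 772 CPM in Nav-Tsc2 mice (-0.09, 95% interval -0.25 to 0.06, adjusted p = 0.40). Psmb7, of the trypsin-like activity, measured 188, 196, 187 and 198 CPM in control and 167, 181, 200 and 170 CPM in Nav-Tsc2 mice (-0.10, 95% interval -0.28 to 0.08, adjusted p = 0.43). In both Psmb6 and Psmb7, Nav-Tsc2 replicate 3 reached the control range, and the 3 intervals leave out a change of 0.5 in either direction.

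In the alpha ring, Psma3 was lower. It measured 311, 289, 270 and 253 CPM in control and 225, 213, 228 and 184 CPM in Nav-Tsc2 mice, again without overlap (log2 fold change -0.40, SE 0.10, 95% interval -0.62 to -0.18, adjusted p = 0.018), and this was the lowest log2 fold change of the constitutive subunits. Of its windows, 22.0% are shared with another gene. Psma7, the highest of the ring per kb of principal transcript, measured 665 to 731 CPM in control and 686 to 768 CPM in Nav-Tsc2 mice, with a log2 fold change of 0.03 and a 95% interval of -0.13 to 0.20.

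In the lid, Psmd14 measured 538, 518, 542 and 479 CPM in control and 407, 421, 457 and 425 CPM in Nav-Tsc2 mice (log2 fold change -0.28, SE 0.07, adjusted p = 0.025). The groups did not overlap, and the same held for the lid scaffold Psmd12 (193 to 235 and 162 to 185 CPM, -0.29, adjusted p = 0.035). None of the 3 non-ATPase subunits of the base passed the test in edgeR, also at an unadjusted p under 0.05 (0 of 3), nor in DESeq2. Psmd1, which docks substrate receptors, had the smallest p of them (-0.15, 95% interval -0.30 to 0.01, adjusted p = 0.17), and Psmd4 had -0.19 (adjusted p = 0.21). Psmd3 had the highest log2 fold change of the subunits, 0.39 (95% interval 0.002 to 0.77, adjusted p = 0.15), at 13.1, 17.2, 21.6 and 15.9 CPM in control and 19.03, 24.3, 21.6 and 23.6 CPM in Nav-Tsc2 mice. Without control replicate 3 it was 0.52 with an adjusted p of 0.042, which is a call.

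Among the Psmd-named assembly chaperones, which help the ATPases join the base and leave before the particle is complete, none passed the test in edgeR. Psmd10 had an unadjusted p under 0.05 there and an adjusted p of 0.025 in DESeq2. It measured 84.8, 71.4, 77.3 and 82.8 CPM in control and 68.0, 63.6, 69.8 and 65.0 CPM in Nav-Tsc2 mice, without overlap (log2 fold change -0.25, adjusted p = 0.072). The log2 fold changes of Psmd9 and Psmd5 were 0.31 (adjusted p = 0.17) and -0.28 (adjusted p = 0.47). Psmc3ip had the lowest log2 fold change of all tested members, -0.67 (95% interval -1.37 to 0.02, adjusted p = 0.16), at a level of 3.16 ± 0.57 CPM in control and 1.98 ± 0.38 CPM in Nav-Tsc2 mice (SD, n = 4). Over the 16 alternative fits the log2 fold change of Psmc3ip ranged from -0.77 to -0.12 and its adjusted p from 0.041 to 0.93. Of its windows, 27.1% are shared with another gene, most of them with its neighbour Mlx.

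**Figure D2:**
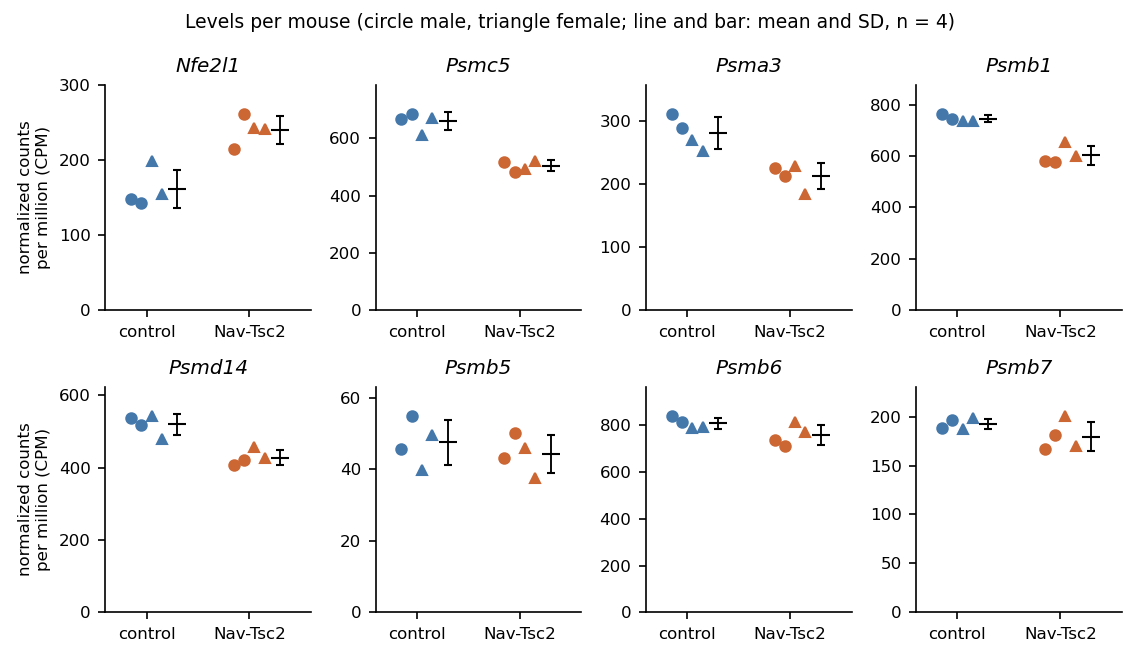
CPM per mouse for Nfe2l1, 4 subunits with an adjusted p under 0.05 (Psmc5, Psma3, Psmb1 and Psmd14) and the 3 catalytic subunits, with circles for male and triangles for female mice and the mean with its SD (n = 4) beside the points. Nfe2l1 is higher in each Nav-Tsc2 mouse (215 to 261 CPM) than in each control mouse (143 to 199 CPM), the next 4 genes show the reverse order without overlap, and the catalytic subunits overlap.

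Over the 37 tested members, each Nav-Tsc2 mouse lay below each control mouse for 13 (12.3% of all genes tested showed this) and above for 1, Nfe2l1 (14.6% of all genes). The 95% interval lay wholly between -0.5 and 0.5 for 27 members, among them 26 of the 31 constitutive subunits, against 15.8% of all genes tested. The genes tested were not matched to the subunits for level, and 8445 of the 17178 had a mean of at least 10 CPM. For these 26 subunits a change past the fold limit lay outside the interval, and of the other 5, Psma3, Psmc5, Psmb3 and Psmd8 had a lower bound under -0.5 and Psmd3 an upper bound over 0.5.

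**Figure D3:**
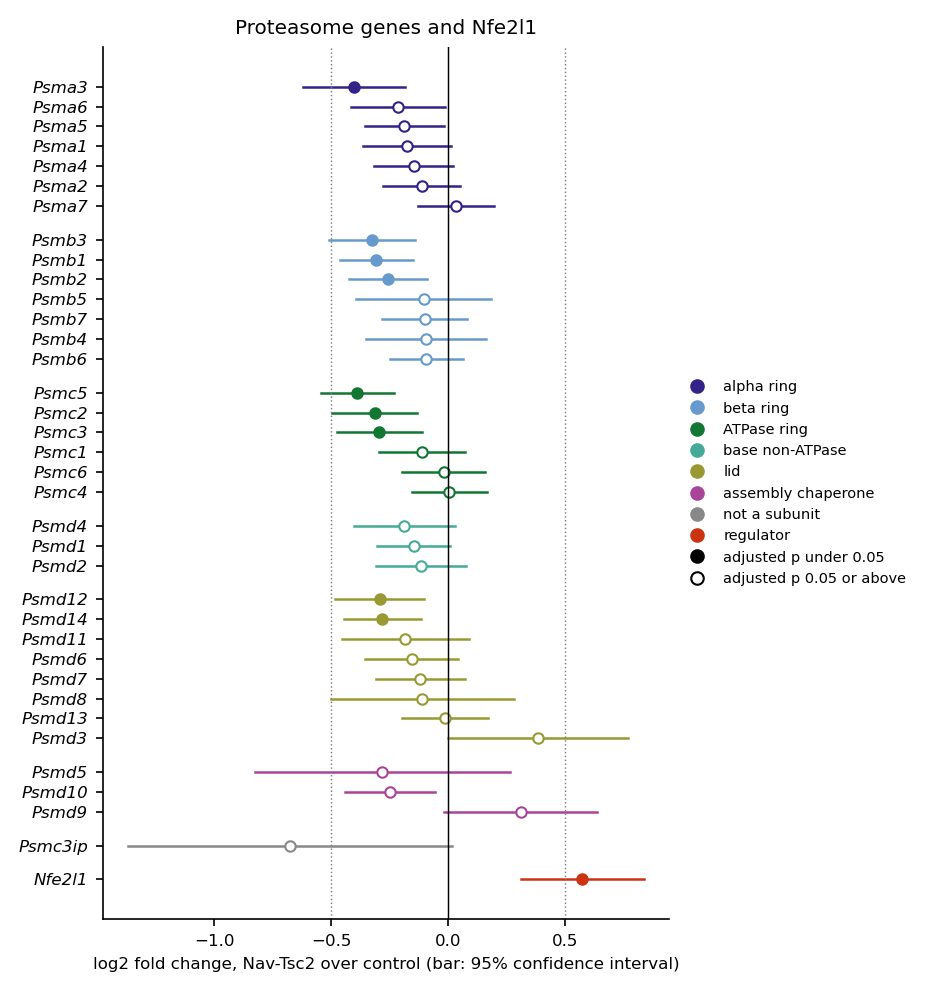
Log2 fold change of Nav-Tsc2 over control mice with its 95% interval for the tested members except Psma8, by structural group, with filled points for an adjusted p under 0.05 and dotted lines at the fold limit of 0.5. The 9 filled subunits lie between -0.40 and -0.25, inside the dotted lines, and Nfe2l1 at 0.58 is the only filled point beyond them.

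The 20S core and the 19S cap gave nearly the same values. The median log2 fold change was -0.15 for the 15 tested core genes and -0.15 for the 17 cap genes, against 0.01 for all genes tested. Of these, 14 core and 15 cap genes were below 0. The summed level of the 14 constitutive core subunits was 4938, 4807, 4786 and 4687 CPM in the control mice and 4143, 4155, 4661 and 4197 CPM in the Nav-Tsc2 mice. Each Nav-Tsc2 mouse lay below each control mouse, and Nav-Tsc2 replicate 3 came close to control replicate 4. The 17 cap subunits summed to 5671, 5709, 5447 and 5637 CPM in control and 4781, 4948, 5173 and 4854 CPM in Nav-Tsc2 mice, also without overlap. The core sum divided by the cap sum was 0.856 ± 0.023 in control and 0.868 ± 0.025 in Nav-Tsc2 mice (SD, n = 4), ranging from 0.831 to 0.879 and from 0.840 to 0.901, so the groups overlapped in this ratio.

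**Figure D4:**
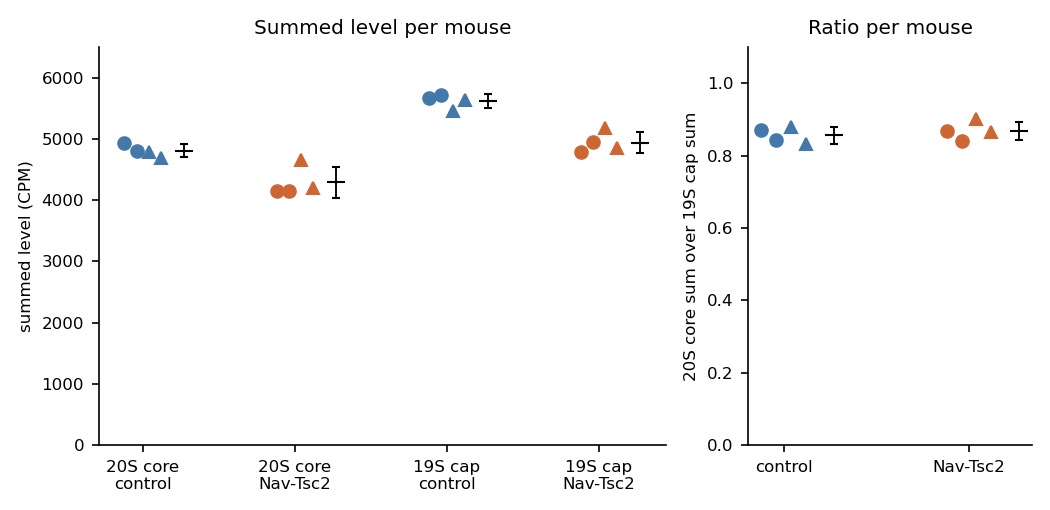
Left, summed CPM of the 14 constitutive core and 17 cap subunits per mouse; right, the core sum divided by the cap sum; circles are male and triangles female mice, and the mean with its SD (n = 4) stands beside the points. Both sums are lower in each Nav-Tsc2 mouse than in each control mouse, while the ratios of the genotypes overlap between 0.840 and 0.879.

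Some markers of other cells differed with genotype in these libraries, but the markers of a list did not all move together. The 13 glial markers summed to between 2983 and 3111 CPM in control and between 1965 and 2546 CPM in Nav-Tsc2 mice, without overlap. Of the 12 tested, edgeR called 1, S100b, lower (DESeq2 called 2 glial markers lower and 1 higher), at 712 to 1112 CPM in control and 27.9 to 188 CPM in Nav-Tsc2 mice, and Pmp22 held most of the rest (1261 to 1595 and 1435 to 1726 CPM). The Schwann cell genes Prx and Mag stayed at or below 1.08 CPM in each mouse. The 6 endothelial markers summed to 0.326 to 1.85 CPM in control and 7.73 to 20.1 CPM in Nav-Tsc2 mice (3 tested, all 3 called higher in edgeR), and the 7 macrophage markers to 1.77 to 6.95 and 7.76 to 19.4 CPM (5 tested, 1 called higher in edgeR), with Cldn5, Cdh5 and C1qa at or below 0.261 CPM in each mouse. Pecam1 and Ptprc were highest in control replicate 4, at 1.59 and 0.623 CPM. Flt1 was the largest part of the endothelial sum in Nav-Tsc2 mice (3.67 to 12.7 CPM, and at most 0.0602 CPM in control). Cx3cr1 was the macrophage marker called (2.82 to 9.33 CPM, and at most 0.0602 CPM in control). The log2 fold changes of Csf1r and Cd68 were 2.21 and 2.03 (adjusted p = 0.12 and 0.17), and those of Aif1 and C1qb 0.34 and -1.60 (0.83 and 0.47). The 6 fibroblast markers overlapped (68.2 to 238 and 115 to 205 CPM, with 0 called in edgeR or DESeq2 and 1 higher at an unadjusted p under 0.05 in edgeR), and the 4 red blood cell markers summed to 1.18 to 1.66 and 0.144 to 0.389 CPM, with Hbb-bt at 0 in each mouse. Of the 2 red blood cell markers tested, edgeR called 0 (both lower at an unadjusted p under 0.05) and DESeq2 called 2 lower. Among the 11 nociceptor markers, 3 were called lower, Calca and Isl1 among them, and 1 higher (Prph), and their sum was 16104 to 26076 CPM in control and 14561 to 18029 CPM in Nav-Tsc2 mice. The part of any of these in the levels of Nfe2l1 or the subunits was not tested.

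No member had an interaction of genotype and sex at an adjusted p under 0.05 in edgeR or in DESeq2. None reached an unadjusted p under 0.05 in edgeR either, and the lowest adjusted p was 0.67. Of all 17178 genes tested, 1583 had an unadjusted p under 0.05 for this interaction in edgeR, and 1 (0.00582%) had an adjusted p under 0.05. With 2 mice per sex and genotype, only large differences could be resolved. For the constitutive subunits the median log2 fold change was -0.18 in male and -0.14 in female mice, and 28 of 31 were below 0 in male and 25 of 31 in female mice.

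The antioxidant response element core, TGACNNNGC, was searched for on both strands in the RefSeq promoters (build GRCm38.p6) from 250 bases before to 50 after each start site, since Nfe2l1 binds such elements. Promoters were held for 31 of the 38 members, and 5 of these (16.1%) had a match, against 14.0% of the 27025 genes of the promoter table. Nfe2l1 itself had none in its windows. The 5 promoters with a match are given here over 120 bases upstream of the start site, 5′ to 3′ along the gene, with the match in capitals, because the catalytic subunits Psmb5 and Psmb6 and the lower Psmd12 are among them. For Psmb5, Psmb6 and Psmd9 the stretch runs from 120 to 1 bases before the start site. For Psmc6 and Psmd12 it runs from 250 to 131 bases before and does not reach the start site.

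Psmb5: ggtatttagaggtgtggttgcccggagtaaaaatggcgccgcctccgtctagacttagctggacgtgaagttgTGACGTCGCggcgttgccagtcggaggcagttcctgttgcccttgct

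Psmb6: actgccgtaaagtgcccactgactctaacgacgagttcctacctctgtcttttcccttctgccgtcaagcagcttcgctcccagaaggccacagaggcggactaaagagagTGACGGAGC

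Psmc6: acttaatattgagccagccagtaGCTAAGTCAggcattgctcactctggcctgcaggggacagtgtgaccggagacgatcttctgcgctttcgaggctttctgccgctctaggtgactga

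Psmd12: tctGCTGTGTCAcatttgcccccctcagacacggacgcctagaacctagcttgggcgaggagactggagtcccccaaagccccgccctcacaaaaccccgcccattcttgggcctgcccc

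Psmd9: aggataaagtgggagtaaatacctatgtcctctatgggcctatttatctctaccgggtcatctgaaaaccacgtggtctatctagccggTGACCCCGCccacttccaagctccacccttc

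These stretches lie at chr14:54617996-54618115 on the minus strand for Psmb5 and, on the plus strand, at chr11:70525237-70525356 for Psmb6, chr14:45329574-45329693 for Psmc6, chr11:107479278-107479397 for Psmd12 and chr5:123228070-123228189 for Psmd9. The match begins 47 bases before the start site in Psmb5, 9 in Psmb6 and 31 in Psmd9, where it reads in the direction of the gene, and 227 bases before it in Psmc6 and 247 in Psmd12, where it reads on the opposite strand. In Psmb5 and Psmb6 the match opens with TGACG, which is also the half-site of the cAMP response element. Of the 5 genes, Psmd12 was lower and the other 4 did not pass the test, with log2 fold changes from -0.29 for Psmd12 to 0.31 for Psmd9 and a median of -0.09. The 24 tested members with a promoter but no match, Nfe2l1 left out, had a median of -0.18. A match is a description of these letters and not a site of binding.

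In 6 lists of genes that work with the proteasome, edgeR called 7 of the 39 tested genes higher and 2 lower, to be read beside the 9.12% and 8.00% of all genes given above. DESeq2 called 4 higher and 4 lower, so the lean toward higher calls depended on the test. Psmb8 of the immunoproteasome, the form that immune signals induce, measured 7.51, 8.31, 7.15 and 8.23 CPM in control and 3.99, 3.80, 5.29 and 4.49 CPM in Nav-Tsc2 mice. It was called lower, without overlap (log2 fold change -0.83, adjusted p = 0.019). Psmb9 had -0.70 (adjusted p = 0.095, called by DESeq2) and Psmb10, at 97.7 to 113 CPM in control, 0.04, so 1 of the 3 was called lower and none higher. The call of Psmb8 was lost without Nav-Tsc2 replicate 1 (adjusted p = 0.062) and without Nav-Tsc2 replicate 2 (adjusted p = 0.057).

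Of the 5 activators and inhibitors that dock on the ends of the core, 2 were called higher. Psme3, the nuclear activator PA28 gamma, measured 32.2, 28.8, 39.1 and 38.7 CPM in control and 54.5, 50.1, 55.6 and 52.4 CPM in Nav-Tsc2 mice (log2 fold change 0.62, adjusted p = 0.0062). Psme4, the activator PA200, measured 62.4, 68.7, 75.0 and 77.1 CPM in control and 106.9, 102.3, 90.6 and 102.7 CPM in Nav-Tsc2 mice (0.51, adjusted p = 0.0056). Neither overlapped between the groups. Psme1, a subunit of the interferon-induced activator, was lower at an adjusted p of 0.043 (-0.44) and was not called, and its partner Psme2 had 0.04.

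The 5 tested assembly factors of the core held no call in edgeR or DESeq2 (2 had an unadjusted p under 0.05 in edgeR). Pomp, which guides the beta ring and is the most abundant of them, measured 421, 424, 420 and 447 CPM in control and 334, 318, 393 and 382 CPM in Nav-Tsc2 mice (log2 fold change -0.26, adjusted p = 0.058), and Psmg1, of an alpha ring chaperone, had -0.44 (adjusted p = 0.11). The groups did not overlap in either. The 10 receptors and deubiquitinases that work with the cap held 1 call in edgeR, Rad23b, higher. In DESeq2, 0 of these genes were called higher and 1 lower. Rad23b, a shuttle factor that carries ubiquitinated proteins to the cap, measured 50.5, 49.6, 54.0 and 54.0 CPM in control and 75.7, 68.3, 76.2 and 74.9 CPM in Nav-Tsc2 mice (0.50, adjusted p = 0.0027). Psme4 and Rad23b lay just past the fold limit, and both kept an adjusted p under 0.05 in all 16 alternative fits while their log2 fold changes ranged from 0.45 to 0.56 and from 0.47 to 0.54.

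Among 10 genes that process or accompany Nfe2l1, 3 were called higher and 1 lower. Nfe2l2, the related factor of the oxidative stress response, measured 85.2, 83.6, 75.6 and 56.5 CPM in control and 134, 116, 123 and 125 CPM in Nav-Tsc2 mice (log2 fold change 0.72, adjusted p = 0.0041). Bach1, a repressor that competes for the same elements, measured 4.42, 5.19, 3.42 and 4.02 CPM in control and 11.4, 7.41, 7.90 and 8.06 CPM in Nav-Tsc2 mice (1.03, adjusted p = 0.013). Both rose without overlap of the groups. Vcp, the ATPase that extracts Nfe2l1 from the membrane, measured 73.6, 76.7, 99.9 and 71.3 CPM in control and 108, 137, 103 and 109 CPM in Nav-Tsc2 mice and was called higher (0.51, adjusted p = 0.025). Ngly1, which removes the sugars of Nfe2l1, measured 71.0, 61.6, 54.3 and 73.6 CPM in control and 52.0, 44.5, 40.6 and 36.8 CPM in Nav-Tsc2 mice and was called lower (-0.58, adjusted p = 0.016). The call of Vcp was lost without control replicate 1 (adjusted p = 0.063), 2 (0.061) or 4 (0.062) and without Nav-Tsc2 replicate 1 (0.051) or 2 (0.070), and that of Bach1 without Nav-Tsc2 replicate 1 (0.050). Ddi2, the protease that cleaves Nfe2l1, had -0.28 (adjusted p = 0.16). Of 6 ubiquitin genes and activating enzymes, 1 was called: Uba6 measured 77.7, 93.9, 82.6 and 75.7 CPM in control and 121, 141, 105 and 140 CPM in Nav-Tsc2 mice (0.62, adjusted p = 0.0054), and Uba1, the main activating enzyme, had 0.25 (adjusted p = 0.19).

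**Figure D5:**
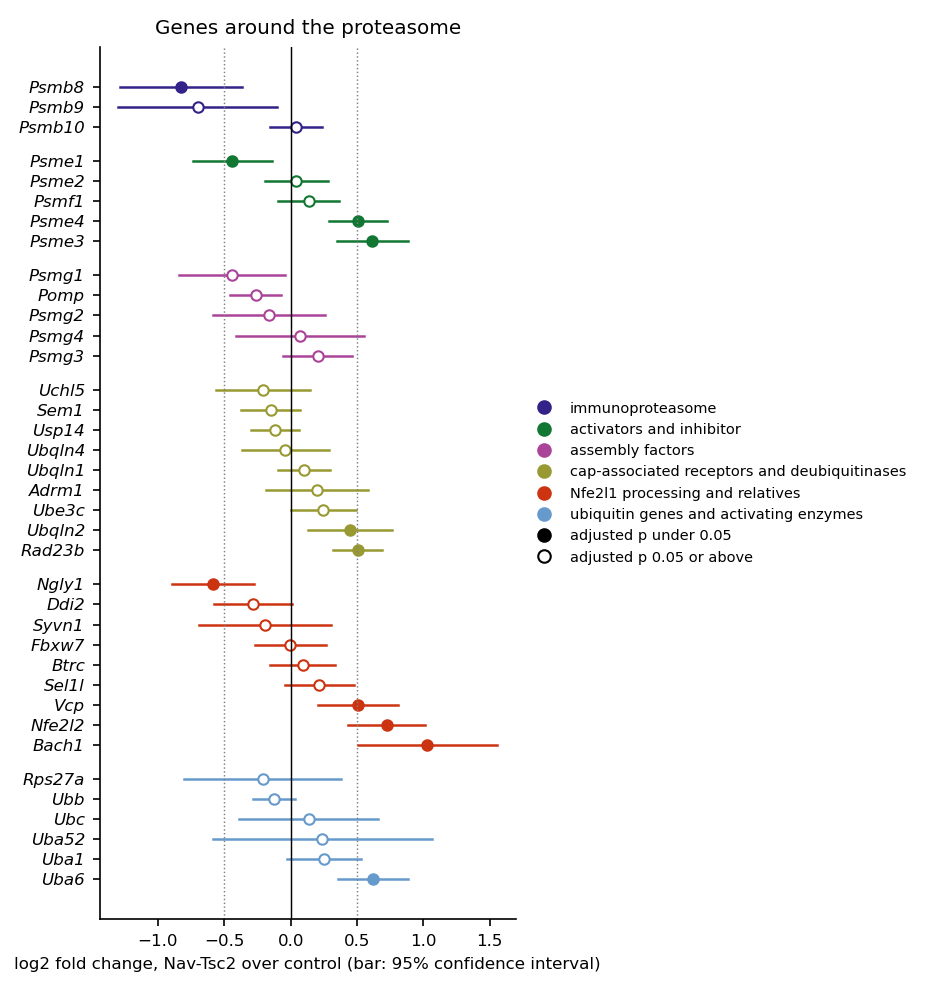
Log2 fold change of Nav-Tsc2 over control mice with its 95% interval for the partners of the proteasome by list, with filled points for an adjusted p under 0.05 and dotted lines at the fold limit of 0.5; Nfe2l3, at or below 2.54 CPM in each mouse, is left out, and not all genes of the lists are drawn. Psmb8 and Ngly1 are filled below the lower limit, and Psme3, Psme4, Rad23b, Vcp, Nfe2l2, Bach1 and Uba6 above the upper one.

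The calls of Nfe2l1, Psme3, Ngly1, Nfe2l2 and Uba6 held in the 16 alternative fits tried, and of the subunits Psmc5 and Psmb1 stayed at an adjusted p under 0.05 in all 16 and Psma3 in 14. The count of 9 subunits depended on single mice: it was 3 without control replicate 1, 3 without Nav-Tsc2 replicate 1, 2 without Nav-Tsc2 replicate 2 and 2 without Nav-Tsc2 replicate 4.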

How the data were processed

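The authors aligned reads to mm10 with STAR and counted them per gene with HTSeq. They deposited raw counts, 1 per gene and library, without normalization. Library kits did not mark strand and reads carried no molecular identifiers, so any error from counts covers counting only, and the spread between mice was used instead. A second deposited table holds the authors' DESeq2 fold changes, statistics and p-values with scaled counts, and it was not used. Technical libraries were summed per mouse. Counts were tested with R 4.3.3 and edgeR 4.0.16 (filterByExpr, TMM, glmQLFTest without covariates), after a trial on simulated data. limma 3.58.1 and DESeq2 1.42.0 served alternatives. SE is the log2 fold change over the square root of F. Gene symbols, transcript lengths and coordinates came from GENCODE vM21 (GRCm38, the build of mm10). The annotation named 47224 of 47643 identifiers.

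Members and lists were chosen with earlier results of these data known. Genes were named by rule: Tsc2, Nfe2l1, called members, Psmb5, Psmb6, Psmb7, Psmd14, the smallest p and the largest level per kb of each structural group, the largest rise and fall, and, per partner list, the called genes and the 2 smallest p. Psmc2, Psmc3, Psmd12, Psmb2, Psmb3, Psme1 and the others named with values fall outside it and were named after their values were seen. Paaf1 was not analysed here. A few genes covered by the rule or the lists are not reported here.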

Additional observations from a re-analysis of the deposited data

Results flagged for a closer look

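In the control group, Psma6, an alpha ring subunit, measured 345 CPM in replicate 4, while the other 3 control mice lay between 374 and 379 CPM. The gap to the nearest of them was 0.874 of the range of the group, past the limit of Dixon's test for 4 values. It was the only flag among 74 groups of 4 mice (37 members in each genotype), and chance alone would flag about 1 group in 20. Psma6 did not pass the test between genotypes (log2 fold change -0.21, adjusted p = 0.12).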

How the results depend on the processing

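The gene tests, their counts and the core and cap medians were recomputed with DESeq2, other scalings, unfiltered genes, a replicate block, a term for sex, libraries as units, and without each mouse. Nfe2l1 stayed called (log2 fold change 0.52 to 0.68, both ends from fits without a mouse, adjusted p at most 0.026). The medians stayed below 0, from -0.22 to -0.13 for the core and -0.18 to -0.10 for the cap, also when each mouse was left out, and chaperones counted with the cap changed neither its sign nor its size beyond the spread. With 24 libraries and a random effect per mouse 2705 genes were called higher and 1339 lower, and with libraries weighted equally 2316 and 1263, against 1567 and 1374; in each of these fits the median of all genes was 0.14, and relative to it the core and cap medians were -0.29 and -0.29 in the former and -0.29 and -0.28 in the latter. DESeq2 called 1 member lower (Psmc3ip), and DESeq2 alone was tried for the interaction with sex (0 members). In edgeR without the fold limit 9 members were lower. Called members higher ranged from 1 to 2 without each mouse (Psmd3 joined without control replicate 3), as did those at an adjusted p alone. Those lower at an adjusted p alone, a count added after seeing the data, ranged from 2 to 9 without each mouse and reached 12 in DESeq2, 13 with 24 libraries and 3 with the replicate block. The cause was not tested.

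Replicate numbers were not taken to pair the mice: deviations of same-numbered mice correlated across 8445 genes at 0.083, 0.108, 0.019 and 0.107 for log2(CPM + 1), 2 of 4 above the limit of 0.1. With pseudocounts of 0.5 and 0.1 CPM, added after seeing the data, 3 of 4 were above it and replicate 3 was not (0.034 and 0.077), so the check lies near its limit. With the replicate block the calls of Psmb8 (adjusted p = 0.066) and Vcp (0.055) were lost. Psme4 and Rad23b lay so near the fold limit that each lost its call in 8 of 16 alternatives with an adjusted p under 0.05 in all, Vcp lost it in 9, Psmb8 in 5, and Bach1 in 1 (without Nav-Tsc2 replicate 1).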
